A study of Caenorhabditis elegans with 2 samples.

Results

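The general transcription machinery is the set of proteins that copies genes into RNA. It comprises the RNA polymerases, the factors that place them at promoters, and the Mediator complex. Its genes in Caenorhabditis elegans were taken as all protein-coding genes of the WBcel235 annotation whose names start with rpb-, rpc-, rpac-, rpoa-, mdt-, taf-, gtf-, tbp- or snpc-. This rule found 76 of 19973 protein-coding genes, of which 21 encode polymerase subunits, 17 TBP-associated factors, 20 Mediator subunits, 11 other general transcription factors including tbp-1, and 7 subunits of the small nuclear RNA activating protein complex (SNAPc). Of the 76 genes, 13 (17.1%) had a reproducible binding peak of T20F7.1 in their promoter window, where 7.31% of all protein-coding genes had one. Polymerase subunit genes held 8 of the 13 peaks, and the subunit genes rpb-12 and rpb-3 and the TFIID gene taf-8 held the strongest.

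RefSeq describes the T20F7.1 product as carrying a C2H2-type domain, which is a kind of zinc finger that often binds DNA. Chromatin immunoprecipitation with sequencing recovered it through an anti-GFP antibody from strain OP754, in which the transgene wgIs754 carries T20F7.1 fused to TY1, EGFP and 3xFLAG together with unc-119(+), in an unc-119(tm4063) background. The material was whole larvae of both sexes at the L4 stage. They were aged 48 hours and had been synchronised by bleaching followed by starvation as L1 larvae, so all tissues were pooled. There was 1 group with 2 biological replicates. The sites are those of a tagged protein made from a transgene in 1 strain. No input or untagged immunoprecipitation was analysed here, and the peak lists hold no expression values against which stage or tissue could be checked.

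RNA polymerase I makes the large ribosomal RNA precursor, RNA polymerase II makes messenger RNAs, and RNA polymerase III makes transfer RNAs and 5S ribosomal RNA. The 3 enzymes share some subunits and have others of their own. TBP binds core promoters, and with the TBP-associated factors it forms TFIID, which starts assembly of the polymerase II complex. Mediator passes signals from DNA-bound regulators to polymerase II, and SNAPc serves the promoters of small nuclear RNA genes. In C. elegans the SNAPc subunit encoded by snpc-4 also acts in piRNA transcription.

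The promoter window ran from 500 bp upstream to 100 bp downstream of the annotated gene start. A reproducible peak is one on the authors' final list, which was made from both replicates. IDR, the irreproducible discovery rate, compares ranked regions, and the list keeps those within a set rate. Of the 1188 listed peaks in promoter windows, 1140 had a candidate within 100 bp in both replicates. A gene counted as having a reproducible peak when the summit of the peak, its highest point, lay in the window. The 101 bases centred on the summit are given for 4 of the strongest peaks at these genes and for 3 weaker ones, so that the bases under higher and lower peaks can be compared. Each is written 5′ to 3′ on the strand of its gene, from the WBcel235 sequence of RefSeq. Capitals mark matches on either strand to any of 10 6-mers, which came from earlier results on these peaks, or to the word TTGTTTA, which was noticed in the sequences themselves. The 4 strong peaks lie at chrIV:9147092-9147192 (minus strand, rpb-12), chrII:9669109-9669209 (plus strand, taf-8), chrIV:7165864-7165964 (minus strand, rpc-1) and chrII:10579026-10579126 (plus strand, rpb-6). The 3 weaker peaks lie at chrIII:9629986-9630086 (minus strand, rpac-19), chrII:10301102-10301202 (plus strand, mdt-22) and chrII:7374269-7374369 (plus strand, rpb-4).
rpb-12: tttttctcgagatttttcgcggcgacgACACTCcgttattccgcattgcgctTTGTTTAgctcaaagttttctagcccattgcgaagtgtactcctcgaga
taf-8: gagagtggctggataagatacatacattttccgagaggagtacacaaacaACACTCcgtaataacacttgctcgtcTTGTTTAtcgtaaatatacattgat
rpc-1: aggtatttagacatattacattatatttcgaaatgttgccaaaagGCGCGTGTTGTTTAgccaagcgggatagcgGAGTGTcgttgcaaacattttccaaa
rpb-6: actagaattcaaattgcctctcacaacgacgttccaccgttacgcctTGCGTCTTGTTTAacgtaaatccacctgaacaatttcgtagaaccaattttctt
rpac-19: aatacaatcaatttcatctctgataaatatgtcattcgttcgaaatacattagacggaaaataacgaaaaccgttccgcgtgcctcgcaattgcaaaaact
mdt-22: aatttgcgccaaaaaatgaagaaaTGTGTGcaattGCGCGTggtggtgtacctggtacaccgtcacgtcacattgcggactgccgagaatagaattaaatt
rpb-4: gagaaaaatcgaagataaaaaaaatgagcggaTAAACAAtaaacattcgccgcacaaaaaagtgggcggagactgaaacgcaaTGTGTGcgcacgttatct
The first 4 sequences all hold TTGTTTA as written on the gene strand, within 50 bases of the summit. The rpac-19 sequence holds no capitals, the mdt-22 sequence holds 6-mers alone, and the rpb-4 sequence holds TTGTTTA on the other strand.

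Reproducible promoter peaks were most frequent at the polymerase subunit genes. A peak was present at 8 of 21 polymerase genes (38.1%), 2 of 17 TBP-associated factor genes (11.8%) and 2 of 20 Mediator genes (10%). SNAPc genes gave 1 of 7 (14.3%) and gtf- and tbp- genes 0 of 11, against 7.31% of all protein-coding genes. These classes follow gene names alone. Of 47 related genes with names outside the rule, 11 had a peak (23.4%). Among them were ttb-1, which encodes TFIIB, and the Mediator genes cic-1 and sur-2. The 55 members that are not polymerase subunits held 5 peaks (9.09%), close to the share over all genes. Among polymerase genes the rpb- genes of RNA polymerase II stood highest, with 6 of 11 (54.5%), although the rpb-4 and rpb-7 summits were nearer to another gene. The rpc- genes of polymerase III had 1 of 4, the rpac- genes shared by polymerases I and III had 1 of 2, and the rpoa- genes of polymerase I had 0 of 4. Of the rpb- genes whose subunits belong to all 3 polymerases (rpb-5, rpb-6, rpb-8, rpb-10 and rpb-12), 3 of 5 had a peak, and of the other rpb- genes 3 of 6 had one. The groups are small and were described by counts, and no test of the difference between them was made.

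**Figure D1:**
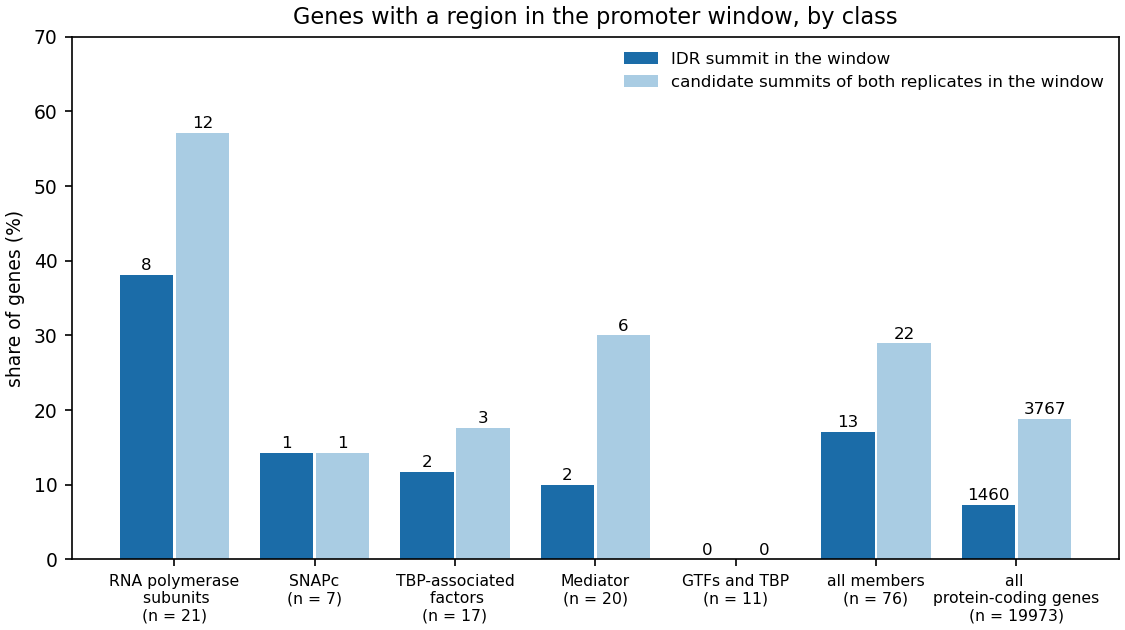
Share of genes (vertical axis, %) with an IDR summit in the promoter window and with candidate summits of both replicates there, for each class of transcription machinery gene, all 76 of them and all protein-coding genes, with the number of genes above each bar. Polymerase subunit genes stand highest on both measures, with 38.1% and 57.1%, against 7.31% and 18.9% of all genes. Classes follow gene names, so the class of GTFs and TBP holds the gtf- genes and tbp-1 alone.

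Each replicate list also holds 30000 candidate regions, ordered by the signal value of the authors' peak caller, most of which did not pass IDR. Candidate summits of both replicates lay in the window of 22 of the 76 genes (28.9%), against 18.9% of all protein-coding genes. Polymerase genes had 12 of 21 (57.1%), of which the rpb- genes gave 9 of 11. Mediator genes had 6 of 20 (30%), TBP-associated factor genes 3 of 17, SNAPc genes 1 of 7, and gtf- and tbp- genes 0. At 47 members (61.8%) no region of any list had a summit in the window, against 65.3% of all protein-coding genes.

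The strongest of the 13 peaks were at rpb-12 and rpb-3. rpb-12, which encodes a small zinc-binding subunit common to all polymerases, had its summit 273 bp upstream of the gene start (peak chrIV:9146868-9147434, between annotated genes). Its signal was 983 in replicate 1 and 927 in replicate 2, and 1920 in the IDR list, where it ranked 27 of 2586. rpb-3, whose product forms the assembly platform of polymerase II together with the rpb-11 product, had its summit 129 bp upstream (peak chrI:8728436-8728866), in a non-coding exon of the ncRNA gene C36B1.16. Its signal was 856 in replicate 1 and 836 in replicate 2, and 1695 in the IDR list, at rank 37. Both genes had nearly the same height in the 2 replicates. No rpb-11 region appeared in any list.

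The other subunits common to all polymerases divided. rpb-5 had its summit 330 bp upstream (peak chrI:6849862-6850349), with a signal of 425 in replicate 1 and 432 in replicate 2, and 865 in the IDR list. rpb-6 had its summit 304 bp upstream (peak chrII:10578892-10579337), with a signal of 402 in replicate 1 and 391 in replicate 2, and 791 in the IDR list. Both summits lay outside annotated genes, and in each case the replicates gave nearly equal values. For rpb-8, candidates were listed in both replicates but fell short of IDR, with 22.2 in replicate 1 and 52.1 in replicate 2. For rpb-10 no region was listed.

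The stalk of RNA polymerase II is formed by the products of rpb-4 and rpb-7. Each gene had a peak in its window, although each summit was nearer to the start of another gene. Both peaks were lower than the 6 strongest of the 13. The rpb-7 summit lay 22 bp inside the gene, in its coding exon (peak chrI:3032696-3033135), with 90.2 in replicate 1, 74.8 in replicate 2 and 171 in the IDR list. The rpb-4 summit lay 176 bp upstream (peak chrII:7374099-7374538), with 55.2 in replicate 1, 67.6 in replicate 2 and 115 in the IDR list. The weakest of all IDR peaks had 95.6, which places the rpb-4 peak in the lower part of the list, at rank 1824 of 2586. The large subunit gene rpb-2 had candidates alone, with 24.3 in replicate 1 and 35.8 in replicate 2. ama-1, which encodes the largest subunit of polymerase II and has a name outside the rule, had no IDR peak in its window.

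For the other polymerases, peaks were at rpc-1, which encodes the largest subunit of RNA polymerase III, and at rpac-19, whose product is common to polymerases I and III. The rpc-1 summit lay 166 bp upstream (peak chrIV:7165671-7166138), with 464 in replicate 1, 467 in replicate 2 and 938 in the IDR list, at rank 131. The rpac-19 summit lay 151 bp upstream (peak chrIII:9629816-9630255), with 93.3 in replicate 1, 109 in replicate 2 and 199.6 in the IDR list, at rank 789. The rpc-1 peak was among the strong ones and the rpac-19 peak was not. No IDR peak lay at the polymerase I genes rpoa-1, rpoa-2, rpoa-12 and rpoa-49, and of these rpoa-2 alone had candidates, with 17.6 in replicate 1 and 25.4 in replicate 2.

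Of the TBP-associated factor genes, taf-8 and taf-4 had peaks. The products of both are TFIID subunits with histone fold domains, and taf-4 is known in C. elegans for its broad role in embryonic transcription. The taf-8 summit lay 159 bp upstream (peak chrII:9668961-9669378), with 622 in replicate 1, 570 in replicate 2 and 1193 in the IDR list, at rank 81. The taf-4 summit lay 333 bp upstream (peak chrI:382273-382712), with 98.1 in replicate 1, 103 in replicate 2 and 199.3 in the IDR list, at rank 790. Both summits lay between annotated genes, and taf-8 was the only one of the strong peaks not at a polymerase gene. taf-1, which encodes the largest TFIID subunit, had a candidate in replicate 2 alone, with 27.2.

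The Mediator peaks were at mdt-22, which encodes a head module subunit, and mdt-4, which encodes a middle module subunit. The mdt-22 summit lay 64 bp upstream, in an intron of clpp-1 (peak chrII:10300932-10301371), with 92.6 in replicate 1, 63.9 in replicate 2 and 158 in the IDR list. The mdt-4 summit lay 25 bp inside the gene, in a coding exon (peak chrII:4943704-4944143), with 65.7 in replicate 1, 52.9 in replicate 2 and 117 in the IDR list. Both were higher in replicate 1. The SNAPc peak was at snpc-3.4, 29 bp inside the gene (peak chrIII:4019846-4020285), with 63.4 in replicate 1, 60.6 in replicate 2 and 131 in the IDR list. No tRNA, snRNA, snoRNA, miRNA or rRNA gene lay within 250 bp of any of the 13 summits.

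The 13 peaks fell into a stronger and a lower set, although 10 of the 13 lay above the median of all 2586 IDR peaks (144). The 6 strongest (rpb-12, rpb-3, taf-8, rpc-1, rpb-5 and rpb-6) had signals of 791 to 1920 and the maximum −log10 q of 3.01, while the other 7 had 115 to 199.6 with no value between. Of the 13, 6 (46.2%) were among the strongest 20% of IDR peaks (signal of at least 266), against 378 of the 1188 IDR peaks in the promoter window of any protein-coding gene (31.8%). The median signal was 199.6 for the 13 peaks and 174 for the 1188 promoter peaks. The member median lies at the edge of the gap between the sets, and it was 171 with a window from 250 bp upstream to 50 bp downstream and 791 with the nearest gene alone. By class the median was 828 for the 8 polymerase peaks and 138 for the 2 Mediator peaks, and the single SNAPc peak had 131. The 2 TBP-associated factor peaks had 199.3 and 1193, so their median of 696 lies in the gap and describes neither. Read depth is unknown, so these signals were used to rank peaks, and their counting error could not be estimated.

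The heights in the replicates were close for the 13 member peaks. Replicate 2 over replicate 1, as a log2 ratio, was between −0.54 (mdt-22) and 0.29 (rpb-4), with a median of −0.04 and an SD of 0.22 over the 13 peaks. Over the 1140 promoter peaks matched in both replicates the median was 0.01 and the SD 0.44. Replicate 1 was higher at 8 of the 13 and replicate 2 at 5. The 6 strong peaks kept within −0.13 and 0.02, and the widest ratios were in the lower set.

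**Figure D2:**
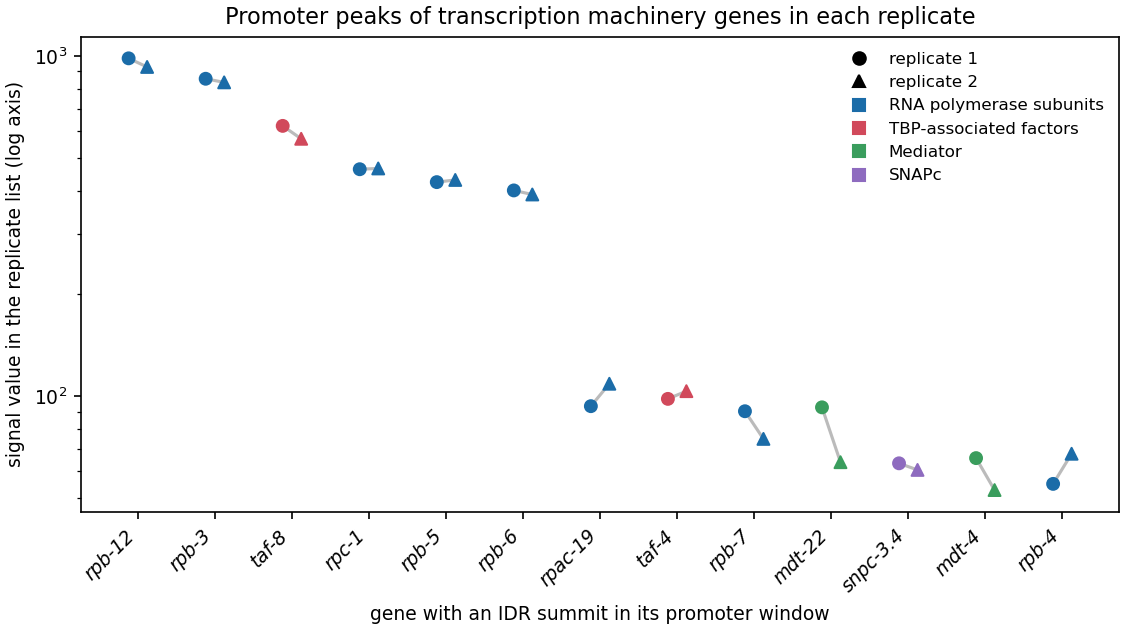
Signal of each of the 13 promoter peaks in replicate 1 and in replicate 2 (log axis, signal value of the authors' peak caller), for the genes in order of their IDR signal. The points of the 2 replicates nearly coincide for rpb-12, rpb-3, taf-8, rpc-1, rpb-5 and rpb-6, and a gap separates these 6 from the other 7.

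Summits lay mostly upstream of the gene start. The distance ran from −333 bp (taf-4) to 29 bp (snpc-3.4), with a median of −159 bp for the 13 members, against −191 bp over the 1487 pairs of a protein-coding gene and an IDR promoter peak. Upstream summits were 10 and downstream ones 3 (rpb-7, mdt-4 and snpc-3.4), where 6.32% of all pairs were downstream. All 3 downstream summits belonged to the lower set. The strong peaks at rpb-5 and rpb-6 were among those farthest from the start, as was the lower peak at taf-4.

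**Figure D3:**
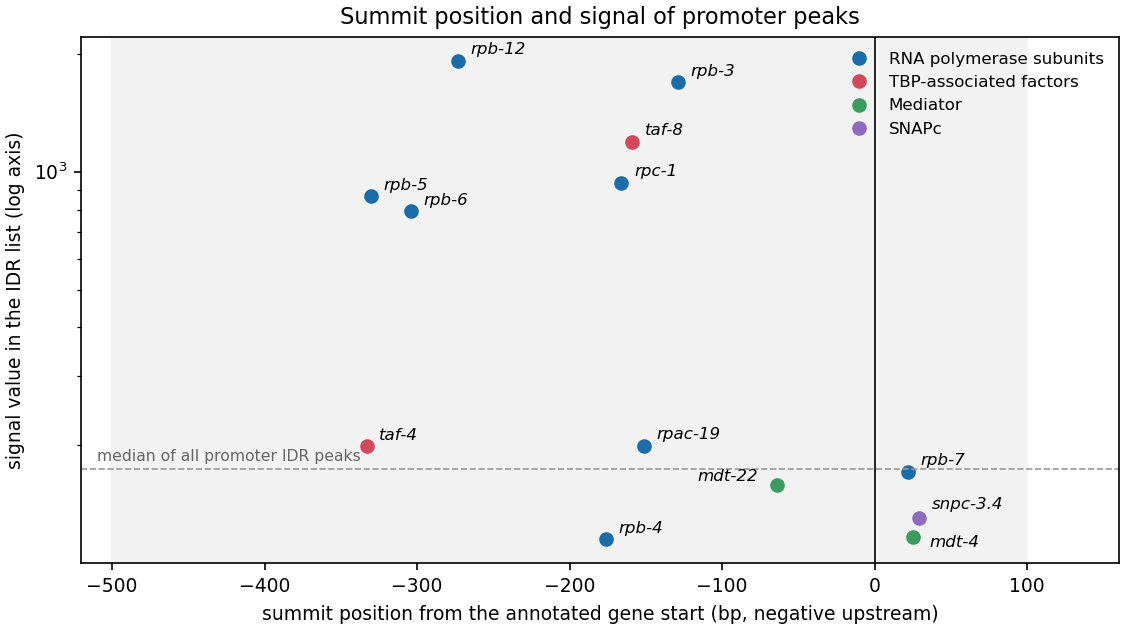
Distance of the IDR summit from the gene start (horizontal axis, bp, negative values upstream) against IDR signal (log axis) for the 13 member peaks, with the window shaded and the median signal of all promoter peaks dashed. The 6 strong peaks lie 129 to 330 bp upstream, and the 3 summits downstream of the start all have signals of 171 or less.

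At 4 of the 13 genes the same summit also lay in the window of another protein-coding gene, so the peak cannot be given to 1 of them by position. This share of 30.8% stands beside 24.8% (295 of 1188) for all promoter peaks. The rpb-12 summit lay 326 bp upstream of aly-2, and the rpb-3 summit 148 bp upstream of pas-4, a proteasome subunit gene. In both cases the polymerase gene was the nearer one. The rpb-4 summit was nearer to mtch-1, a mitochondrial carrier gene, at 153 bp, and the rpb-7 summit was nearer to Y54E10BR.2, at 19 bp. Counting each summit for its nearest gene alone left 11 of the 76 genes (14.5%), without rpb-4 and rpb-7, against 5.85% of all protein-coding genes under the same rule.

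Sequence words were looked for within 50 bp of each summit on both strands. The 10 6-mers overlap each other in part. In order of frequency over the 1188 promoter peaks they were ACACTC (190 peaks), ACGCGC (174 peaks), CACACA (148 peaks), GACGCA (143 peaks), AGAGAC (141 peaks), ACGCAG (133 peaks), ACACGC (125 peaks), CGTCTC (123 peaks), AGCGCG (122 peaks) and ACACAC (111 peaks). At least 1 of them was present at 9 of the 13 member peaks (69.2%). It was present at 689 of the 1188 promoter peaks (58.0%) and in 22.3% of windows of the same length centred 191 bp upstream of all protein-coding gene starts. The words came from earlier results on these peaks, so they were chosen with the peaks known. The share followed peak strength. It was 6 of 6 for the strong member peaks, against 80.4% of promoter peaks among the strongest 20% of IDR peaks. For the lower member peaks it was 3 of 7 (42.9%), against 47.5% of the other promoter peaks. ACACTC was the most frequent at members, in 4 of 13 (rpb-12, rpb-3, taf-8 and rpc-1), against 190 of 1188 promoter peaks and 3.64% of all promoters. GACGCA lay at rpb-5 and rpb-6, ACGCGC at rpc-1 and mdt-22, ACACGC at rpb-3 and rpc-1, CGTCTC at rpb-7, and CACACA at mdt-22 and rpb-4. None of the 10 words was found at rpac-19, taf-4, snpc-3.4 and mdt-4.

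TTGTTTA was noticed in the sequences of rpb-12, taf-8, rpc-1 and rpb-6 printed above, so its counts are a description of what was seen. It was then also found at rpb-3 and rpb-5, which gave 6 of the 6 strong member peaks, and at 1 of the 7 lower ones (rpb-4). In the 6 strong peaks it read along the strand of the member gene. Its first base lay 2 bases downstream of the summit at rpb-12 and rpc-1, 3 at rpb-6, 9 at rpb-5, 26 at taf-8 and 35 at rpb-3. The 4 sequences in which it was noticed were printed on that strand, and its orientation and position over all promoter peaks were not counted. The rpb-12 and rpb-3 summits also lay in the windows of aly-2 and pas-4, which run the other way, so the strand there depends on the gene chosen. Over all promoter peaks TTGTTTA was present in 113 of 378 (29.9%) among the strongest 20% of IDR peaks and in 35 of 810 (4.32%) below them. It was present in 4.26% of all promoters. A longer stretch, ACACTCCGT, was likewise seen in the printed sequences of rpb-12 and taf-8, both strong peaks. It occurred in 23 of 1188 promoter peaks (1.94%) and 0.0851% of all promoters. By strength it was in 22 of the 378 promoter peaks among the strongest 20% (5.82%) and in 1 of the 810 below them (0.123%). The median GC content within 50 bp of the summit was 40.6% for the member peaks and for all promoter peaks, and 33.7% for the windows at all promoters.

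Members whose window held candidates but no IDR peak were 16. Candidates of both replicates lay at 9 of them (rpb-8, mdt-15, mdt-11, mdt-28, rpb-2, mdt-1.2, rpb-9, rpoa-2 and taf-7.1), and a candidate of a single replicate at 7 (mdt-9, rpc-2, taf-11.2, taf-13, mdt-26, rpc-25 and taf-1). mdt-9 had the strongest single candidate, with 77.5 at rank 1198 of 30000 in replicate 1 and none in replicate 2. Its product is described in RefSeq as the guanine nucleotide exchange factor MSS4. rpc-2, which encodes the second largest subunit of polymerase III, had 51.7 in replicate 2, at rank 2724, and none in replicate 1. These high candidates in 1 replicate had no counterpart in the other.

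mdt-11 came nearest to the IDR list, with 31.1 in replicate 1, 45.5 in replicate 2 and 81.8 in the pooled list, which is 85.6% of the weakest IDR signal. mdt-15, whose product is known in C. elegans for its part in fatty acid metabolism and stress responses, had 46.9 in replicate 1 and 22.8 in replicate 2. mdt-28 had 38.5 in replicate 1 and 31.3 in replicate 2, and mdt-1.2 had 33.4 in replicate 1 and 32.9 in replicate 2. Apart from mdt-9, every one of these candidates ranked below the first 2586 regions of its replicate list.

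**Figure D4:**
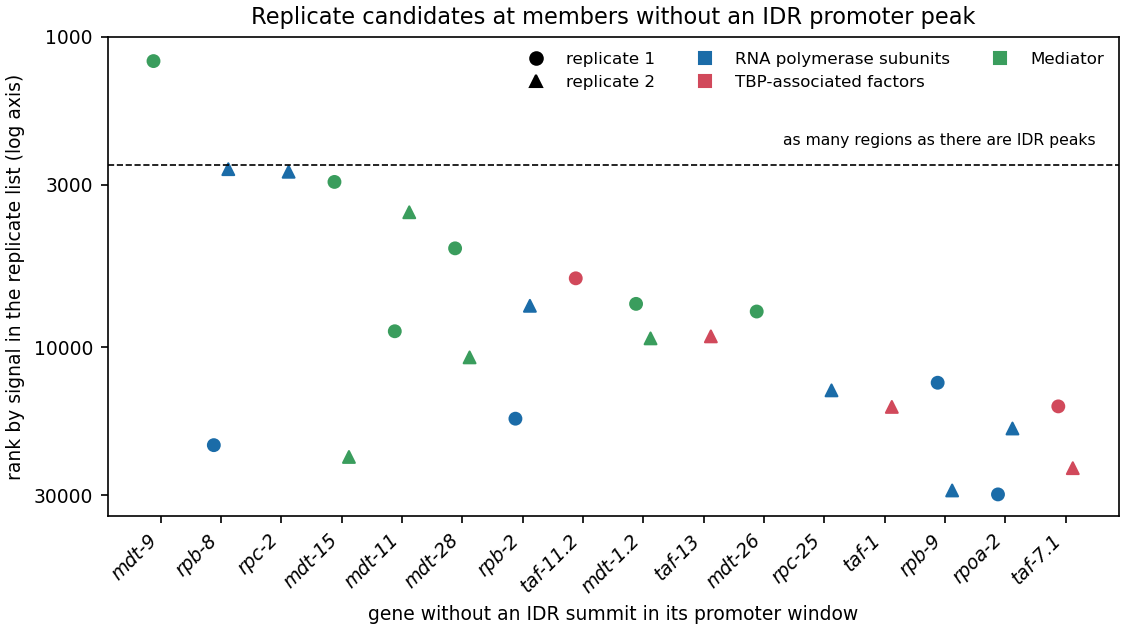
Rank by signal in the replicate lists (log axis, stronger regions toward the top, 30000 regions in each list) of the candidates at the 16 genes without an IDR promoter peak, with circles for replicate 1 and triangles for replicate 2. A single point, that of mdt-9 in replicate 1 at rank 1198, lies above the dashed line at rank 2586.

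Of the 63 members without a promoter peak, 11 (17.5%) had an IDR summit within 2 kb of the start, against 6.91% of all genes without a promoter peak. The distance to the nearest IDR summit ran from 661 to 228707 bp, with a median of 14253 bp for these members and 22538 bp for all such genes. At mdt-15, mdt-18, mdt-26 and mdt-27 an IDR summit lay inside the gene but outside the window. At mdt-26 it lay 661 bp downstream of the start, with a signal of 282, at mdt-27 917 bp downstream with 139, and at mdt-18 1293 bp downstream with 253. All 4 are Mediator genes by name. The share of all genes without a promoter peak that hold a summit inside was not counted, so this is not read as a Mediator trait.

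Many transcription machinery genes follow closely behind another gene on the same strand, as genes in C. elegans operons do. A protein-coding gene on the same strand ended within 500 bp upstream of 30 of the 76 genes (39.5%), against 18.1% of all protein-coding genes. A peak lay at 3 of these 30 (10%) and at 10 of the other 46 (21.7%), where the shares over all genes were 7.22% and 7.33%. Polymerase genes gave 2 of 10 and 6 of 11. The rule used spacing alone, and no operon annotation was read.

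Where a member without its own peak followed such a gene, the chain of close genes was traced to its first gene. The first gene had an IDR promoter peak for 10 of 27 members (37.0%), against 475 of 3354 genes without a peak of their own (14.2%). The strongest lay at cec-3, a chromodomain gene ahead of mdt-10, with 739 in replicate 1, 786 in replicate 2 and 1517 in the IDR list, 2580 bp from the mdt-10 start. Next came wip-1 ahead of mdt-11, with 488 in replicate 1, 446 in replicate 2 and 941 in the IDR list, and mrps-18C ahead of rpb-2, with 371 in replicate 1, 414 in replicate 2 and 787 in the IDR list. The first 2 were within the range of the 6 strongest member peaks, and the peak at mrps-18C was just below it.

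The other 7 first-gene peaks were weaker, between 115 and 205. They lay ahead of mdt-6 (205), rpc-2 (175), rpoa-49 (170, at nfyc-1), taf-13 (134), tbp-1 (133), rpb-9 (117) and gtf-2H5 (115). Those of tbp-1 and gtf-2H5 lay 2100 and 21711 bp from the member's start. The peak ahead of tbp-1 is the same one that is counted for hmg-4 below. The peak ahead of gtf-2H5 had 52.5 in replicate 1 and no matched candidate in replicate 2. With a peak at the gene itself or at the first gene of its chain, the count was 23 of 76 members (30.3%) and 12 of 21 polymerase genes (57.1%). The share of all protein-coding genes was 9.69%. Of the members without a peak of their own, 42.9% followed a close gene, against 18.1% of all such genes. More members could therefore gain a first-gene peak, and these combined shares were not matched for spacing.

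By chromosome, 4 of the 76 genes are on X (5.26%), against 13.7% of all protein-coding genes, and none of those 4 had a promoter peak. Of the autosomal members, 11 of 13 with a peak (84.6%) and 28 of 59 without one (47.5%) lay in the central part of their chromosome, from 25 to 75% of its length, against 55.7% of all autosomal protein-coding genes. The share of all X genes with a promoter peak was not counted. Nor was the central share of all genes with a promoter peak. Neither count is therefore read as particular to these genes.

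Transcription factors and cofactors whose names fall outside the rule were read from a list of 48 names, of which 47 matched a gene. A promoter peak was present at 11 of these 47 (23.4%), against 7.31% of all protein-coding genes. The strongest were at cic-1, which encodes cyclin C of the Mediator kinase module, and ttb-1, which encodes TFIIB. cic-1 had 758 in replicate 1, 714 in replicate 2 and 1481 in the IDR list, 104 bp upstream of the start. ttb-1 had 689 in replicate 1, 694 in replicate 2 and 1377 in the IDR list, 249 bp upstream. Both ranked with the stronger set, at 56 and 60 of 2586, although the gtf- genes held no peak.

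Integrator, which processes small nuclear RNAs and attenuates transcription, had a peak at 3 of its 10 listed genes, against 7.31% of all protein-coding genes. These were ints-4 (899 in the IDR list, 473 in replicate 1 and 425 in replicate 2), ints-2 (171) and ints-6 (160). The remaining peaks were at pqn-51 (282), the Paf1 gene pafo-1 (230), tcer-1 (156), the FACT subunit gene hmg-4 (133), the Mediator gene sur-2 (128) and cids-2 (120). In 6 of the 11 cases (pqn-51, ints-2, ints-6, tcer-1, hmg-4 and cids-2) the summit also lay in the window of another gene. The kinase genes cdk-7, cdk-8 and cdk-9 and the elongation factor genes spt-4 and spt-5 had no promoter peak.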

How the data were processed

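Binding of tagged T20F7.1 was measured by ChIP-seq in 2 biological replicates of 1 group. The authors deposited 4 peak lists on ce11, which is the WBcel235 sequence: 30000 candidate regions for each replicate and for the pooled replicates, and 2586 peaks after IDR. The deposited signal value of each region and its −log10 q-value are the authors' own and were used to rank and describe regions. The aligner, the peak caller, their versions and the signal scale were not given in the sources used here, and the text deposited beside the lists names a control alignment as a parent. The lists hold no read counts, so depth is unknown.

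Genes came from Ensembl release 115 on the 6 nuclear chromosomes. The summit is the region start plus the deposited offset, counted from 1. Replicate values are those of the candidate with the summit nearest the IDR summit, within 100 bp. At members without an IDR promoter peak they are those of the strongest candidate in the window. Named genes are every member with a promoter peak, genes that share its window, and members with the highest replicate candidates. Members, gene lists and 6-mers were chosen with earlier results of these data known, and no test was made. Window assignment was tested on simulated data. Alternatives were other windows, transcript starts, peak overlap, the nearest gene alone, stricter peaks and single replicates. Python 3.11.15, numpy 2.4.6, pandas 2.3.3 and matplotlib 3.10.9 were used.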

Additional observations from a re-analysis of the deposited data

How the results depend on the processing

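Of 79 values recomputed under alternatives, 66 kept their value within the spread allowed and 13 moved. A count was taken as kept when it changed by a factor of at most 1.5. By this wide rule every count over the 76 genes given below was kept, including the fall from 13 to 9. The count of gtf- and tbp- genes was 0 in the main setting and stayed 0, so it had no room to fall. The window from 250 bp upstream to 50 bp downstream left 9 of the 76 genes, without rpb-12, rpb-5, rpb-6 and taf-4, against 4.54% of all genes. It gave 5 polymerase and 1 TBP-associated factor genes, a median signal of 171 and a median distance of −129 bp. The window from 1000 bp upstream to 200 bp downstream gave 15 genes, of which 4 were Mediator genes (mdt-6 and mdt-19 added), against 9.04% of all genes. The stronger 50% of IDR peaks, and equally a −log10 q of at least 2, left 10 genes, without mdt-4, rpb-4 and snpc-3.4, with 1 Mediator and 0 SNAPc genes, against 4.77% and 4.50% of all genes. The stronger 50% gave a median signal of 828 and a median distance of −162.5 bp. With the nearest gene alone the median signal was 791. Taking the strongest regions of a single replicate in place of IDR gave 12 genes without replicate 1 and 14 without replicate 2, against 7.35% and 7.32% of all genes, and 1 to 3 Mediator genes (mdt-4 lost, mdt-9 gained). Transcript starts added mdt-18, against 7.91% of all genes. The polymerase genes kept the highest share of the 5 classes under each of these alternatives.

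The signal scale and depth are unknown, 2 replicates of 1 strain were measured, and no control immunoprecipitation was analysed here. Counts within a class rest on few genes. No paired analysis was possible because there was 1 group and no comparison between groups.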
